A study of Rattus norvegicus with 6 samples.

Results

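Klhl40, a muscle gene of the Kelch family, was examined in rat heart RNA together with 7 genes whose products are its relatives or work with it: Klhl41, Klhl31, Klhl38, Lmod2, Lmod3, Neb and Nrap. Klhl40 was chosen by its measured rise, being higher in every library of the treated group, so its values are a description and carry no test. The other 7 were listed by family and function. Each of the 8 genes was found by its symbol among 32883 rows with a rat Ensembl identifier. None of the symbols was repeated, and all 8 passed the filter on low counts. The hearts came from male Sprague–Dawley rats, an outbred strain, 8 weeks old, weighing 250 to 300 g and labelled wild type. There were 3 rats given saline and 3 given ISO at 1.5 mg/kg/day, each injected subcutaneously on 7 consecutive days. The abbreviation ISO is taken to mean isoproterenol, which activates beta-adrenergic receptors and is used to model hypertrophy and fibrosis of the heart. The labels give the tissue as heart and do not say which chamber was taken. Each library is 1 rat, per the series description. Wherever 3 values of a group follow each other, they belong to replicates 1 to 3 in that order.

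Klhl40, Klhl41, Klhl31 and Klhl38 encode proteins with a BTB domain and Kelch repeats, many of which bring substrates to the ubiquitin ligase CUL3. KLHL40 differs from that scheme in that it is known to stabilise its partners leiomodin 3 and nebulin. KLHL41 is likewise known to protect nebulin from aggregation. Leiomodins start and lengthen actin filaments, and LMOD2 is known as the leiomodin of the heart whereas LMOD3 is best known in skeletal muscle. Nebulin spans the thin filament of skeletal muscle, and NRAP is a nebulin relative that takes part in myofibril assembly and sits at the intercalated disc. Loss of KLHL40, KLHL41, LMOD3 or nebulin causes nemaline myopathy, a disease of skeletal muscle.

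The region before the start of each gene is shown for the 3 Kelch genes of the set that have an entry in the table used, because their changes differ: Klhl40 was higher with ISO, Klhl41 was not called and Klhl31 was lower. The sequences are the 250 bases upstream of the start in the RefSeq promoter table, build GRCr8, which held 6 of the 8 genes. They are Klhl40 at chr8:130318543-130318792, Klhl41 at chr3:74841868-74842117 and Klhl31 at chr8:87395628-87395877, all on the plus strand and written 5′ to 3′. Capitals mark matches to the MEF2 site, the sequence bound by myocyte enhancer factors.
Klhl40: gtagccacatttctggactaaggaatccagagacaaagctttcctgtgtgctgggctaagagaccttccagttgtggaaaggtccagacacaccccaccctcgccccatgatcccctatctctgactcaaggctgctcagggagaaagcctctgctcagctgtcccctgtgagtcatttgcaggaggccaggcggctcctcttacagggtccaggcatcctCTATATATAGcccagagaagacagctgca
Klhl41: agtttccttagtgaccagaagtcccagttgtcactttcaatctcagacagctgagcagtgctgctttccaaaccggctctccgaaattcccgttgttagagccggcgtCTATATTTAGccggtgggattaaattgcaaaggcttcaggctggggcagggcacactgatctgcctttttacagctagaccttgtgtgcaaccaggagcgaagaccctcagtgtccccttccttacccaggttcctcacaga
Klhl31: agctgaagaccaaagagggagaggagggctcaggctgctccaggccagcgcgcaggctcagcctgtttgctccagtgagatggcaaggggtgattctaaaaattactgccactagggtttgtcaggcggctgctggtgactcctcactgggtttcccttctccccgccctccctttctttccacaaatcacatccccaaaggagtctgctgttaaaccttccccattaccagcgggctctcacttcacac

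Both strands were searched for the MEF2 site, the CArG box bound by SRF, the E-box CANNTG and the TEAD site GGAATG. Klhl40 held a MEF2 match, CTATATATAG, at positions −29 to −20 counted from its start. Those letters also contain TATATA, as a TATA box does. Klhl41 held a MEF2 match, CTATATTTAG, at positions −142 to −133. A MEF2 match stood in 2.96% of all 33469 windows of the same length. Neither MEF2 match overlapped a match to another motif. The windows of Klhl31, Lmod2, Lmod3 and Neb held no MEF2 match. None of the 6 genes had a CArG box or a TEAD site in this window, against 1.5% and 12.1% of all windows. E-boxes were common, standing in 65.5% of all windows, with 4 in that of Klhl40, 2 in that of Klhl41 and 0 in that of Klhl31. These matches describe letters only.

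The depth was similar in all libraries, at 14712798 to 17070878 counts in rows with a rat Ensembl identifier. A level of 3 counts corresponded to 0.175 to 0.204 CPM. CPM, the usual depth-scaled read count, follow scaling between libraries by trimmed mean of M values (TMM). A fold change is given as log2 of the ISO level over the saline level, from edgeR's quasi-likelihood test across 13766 genes. A gene was called at a Benjamini-Hochberg adjusted p under 0.05. ISO replicate 1 held atrial RNA: the atrial light chain gene Myl7 had 1128 counts there and 0 to 25 in the other 5 libraries. Markers of fibroblasts took 0.315% to 0.392% of counts in saline and 0.743% to 2.18% in ISO, with 4 of 10 called higher. Those of macrophages took 0.0256% to 0.0296% in saline and 0.046% to 0.0829% in ISO, with 4 of 8 called higher. Over all genes tested 1.47% were called higher. The part of fibroblasts and macrophages in the results was not tested. ISO replicate 3 stood apart from the other ISO hearts, with the most fibroblast counts (2.17%, against 0.99% and 0.743% in replicates 1 and 2), the most macrophage counts (0.0829%) and the fewest cardiomyocyte counts of any library (4.07%). A reference list of 16 cardiomyocyte genes took 4.84% to 6.6% of counts in saline and 4.07% to 5.66% in ISO, with none called by edgeR, 6 at an unadjusted p under 0.05 and 5 called by DESeq2. Over all genes these shares were 2.97%, 22.9% and 10.2%. The median log2 fold change of the list was −0.30. Its most abundant gene, Myh6, stood at 16060 to 23373 CPM in saline and 10380 to 16065 CPM in ISO (−0.57, SE 0.23, edgeR adjusted p = 0.195). Scaling to this list moved the median of all genes from 0.02 to 0.35. Myh6 had the most counts of the list in every library, so levels per reference count lean on it most. The log2 fold changes of the list were uneven, from −0.59 in Myom1 to 0.07 in Tnnt2. In bulk tissue fewer cardiomyocytes, less RNA per cardiomyocyte and changes in the listed genes themselves cannot be told apart.

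Skeletal muscle, where several of these genes are most abundant, left little trace. Of 16 skeletal muscle markers 13 were found, and together they took 0.00348% to 0.0087% of counts in any library. The master regulator gene Myod1 stood at 0 counts in all 6 libraries. Tnnc2, Pvalb, Cacna1s and Myf6 had at most 2 counts in any library. Others of the list had more, with 54 to 118 counts for Tnnt3, 36 to 104 for Mybpc2 and 13 to 23 for Mylpf. Tnni2 had 2, 1 and 4 counts in the saline hearts and 6, 7 and 14 in the ISO hearts. The most abundant marker of that list, the calsequestrin gene Casq1, was at 33.5 to 76.9 CPM in saline and 24.7 to 49.3 CPM in ISO.

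Klhl40 (ENSRNOG00000019390) was higher in every ISO heart than in any saline heart. The saline hearts stood at 6.87, 6.93 and 6.44 CPM, from 101, 111 and 102 counts. The ISO hearts stood at 50.2, 50.9 and 34.2 CPM, from 802, 817 and 586 counts. The saline hearts lay close together, with a coefficient of variation of 4.02%, while the ISO hearts varied by 21%, with replicate 3 the lowest. The means were 45.1 ± 9.47 CPM in ISO and 6.75 ± 0.271 CPM in saline (SD, n = 3 each). On the log2 scale this is a change of 2.74 (SE 0.18), which is 6.67-fold and the value ranked 44 from the top of 13766 tested genes. Leaving out any 1 library gave 2.64 to 2.91, with 2.65 without ISO replicate 1. Per 10000 counts of the cardiomyocyte reference list, Klhl40 had 1.04 to 1.34 counts in saline and 10.5, 8.88 and 8.98 in ISO, so that replicate 3 was not the lowest on that scale.

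**Figure D1:**
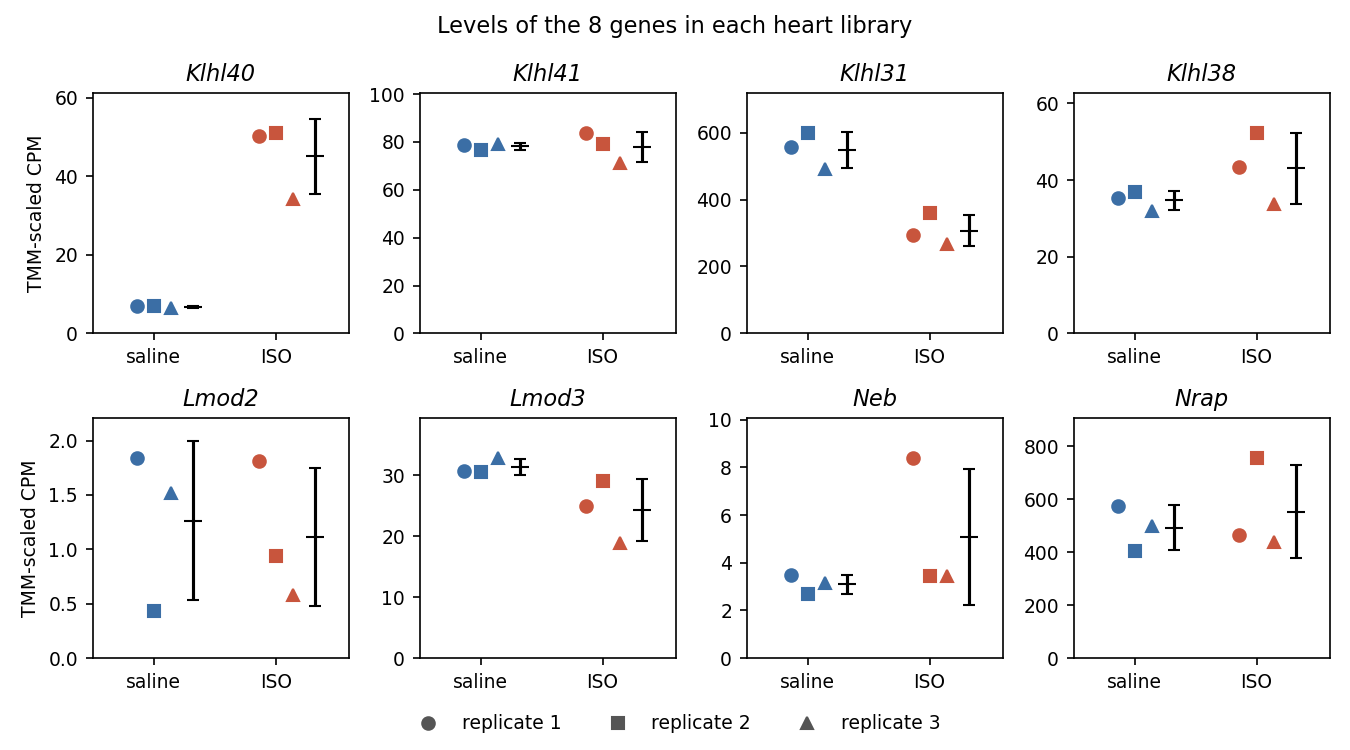
TMM-scaled CPM of the 8 genes (y axis, from 0, a separate scale for each gene) in 3 saline and 3 ISO heart libraries. Points are libraries, shaped by replicate number, and bars give the mean ± SD of 3. Klhl40 ran from 6.44 to 6.93 CPM in saline and from 34.2 to 50.9 CPM in ISO, while the 2 groups of Klhl41 overlapped.

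Klhl41 (ENSRNOG00000007461), the closest relative of Klhl40 in this set by its known work on nebulin, was not called. It stood at 78.9, 76.6 and 79.2 CPM in the saline hearts. In the ISO hearts it reached 83.6, 79.3 and 71.1 CPM, so the ISO hearts lay on both sides of the saline hearts. The log2 fold change was −0.01 (SE 0.10, edgeR adjusted p = 0.983). Its sign was not stable, at 0.10 without scaling and 0.32 when libraries were scaled to the cardiomyocyte reference list. Those scalings moved the median of all genes from 0.02 to 0.13 and 0.35. Relative to that median, which moves with the scaling nearly as each gene does, Klhl41 was at −0.03, −0.03 and −0.04 in the TMM, unscaled and reference-scaled fits.

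Klhl31 (ENSRNOG00000006224), a Kelch gene of heart and skeletal muscle, was lower in every ISO heart than in any saline heart. The saline hearts stood at 556, 598 and 491 CPM. The ISO hearts stood at 294, 359 and 269 CPM. Klhl31 thus changed by −0.83 on the log2 scale (SE 0.15, edgeR adjusted p = 0.0296), so that saline hearts had 1.78 times the ISO level. Relative to the median of all genes the fall was −0.85 with TMM, −0.86 without scaling and −0.89 with the reference list. A change of scaling moves all genes by nearly the same amount, so this likeness was fixed in advance. The call depended on the libraries. The edgeR adjusted p was 0.104, 0.0925 and 0.0963 without saline replicate 1, 2 or 3, 0.115 without ISO replicate 1, 0.0156 without ISO replicate 2 and 0.0483 without ISO replicate 3. Over these fits the change ran from −0.96 to −0.74. With libraries scaled to the cardiomyocyte reference list it was −0.54 and no longer called (edgeR adjusted p = 0.129). The counts per 10000 reference counts were 82.6 to 116 in saline and 61.6 to 70.6 in ISO, which do not overlap.

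Klhl38 (ENSRNOG00000007896), a less studied muscle Kelch gene, was not called. It stood at 35.2, 36.8 and 32.1 CPM in the saline hearts and at 43.3, 52.2 and 33.7 CPM in the ISO hearts. ISO replicates 1 and 2 lay above all saline hearts and ISO replicate 3 lay among them. Its change was 0.31 on the log2 scale (SE 0.16, edgeR adjusted p = 0.287). Without ISO replicate 2 it was 0.15, and without ISO replicate 3 it was 0.46 (edgeR adjusted p = 0.109). Per 10000 counts of the cardiomyocyte reference list the groups did not overlap, at 5.34, 7.13 and 5.39 in saline and 9.07, 9.09 and 8.86 in ISO. On that scaling the log2 fold change was 0.60 (SE 0.19, edgeR adjusted p = 0.12), or 0.25 relative to the median of all genes.

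Lmod3 (ENSRNOG00000032443), the leiomodin that KLHL40 is known to stabilise, was not higher in ISO hearts. It stood at 30.8, 30.5 and 32.8 CPM in the saline hearts and at 24.9, 29.0 and 18.9 CPM in the ISO hearts. All 3 ISO hearts were below all 3 saline hearts, and ISO replicate 2 was within 2 CPM of the lowest saline heart. The log2 fold change of −0.37 (SE 0.16) had an unadjusted edgeR p of 0.0481 and was not called (edgeR adjusted p = 0.214). Per 10000 counts of the cardiomyocyte reference list the groups overlapped, at 4.66 to 5.91 in saline and 4.98 to 5.22 in ISO. Its log2 fold change on that scaling was −0.08, against a median of all genes of 0.35.

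Lmod2 (ENSRNOG00000045831), known as the cardiac leiomodin, had few counts in this table. The saline hearts had 27, 7 and 24 counts and the ISO hearts had 29, 15 and 10 counts. These are 1.84, 0.437 and 1.51 CPM in saline and 1.81, 0.935 and 0.583 CPM in ISO, with the groups fully mixed. The log2 fold change was −0.18 (SE 0.61, edgeR adjusted p = 0.891), and it ran from −0.73, without ISO replicate 1, to 0.18 when 1 library was left out. The coefficient of variation was 58% in saline and 57.1% in ISO. No source used here gives the exons of the counted Lmod2 gene model. Its part in the low count was not tested. The third leiomodin gene, Lmod1, known from smooth muscle, was named after its values were seen. It stood at 6.31 to 10.6 CPM in saline and 9.56 to 17.7 CPM in ISO, a log2 difference of 0.77 (SE 0.27, edgeR adjusted p = 0.147).

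Neb (ENSRNOG00000006783), the gene of nebulin, was low in all hearts and high in 1. It stood at 3.47, 2.69 and 3.16 CPM in the saline hearts, from 51, 43 and 50 counts. ISO replicate 1, the library with atrial RNA, stood at 8.39 CPM from 134 counts. ISO replicates 2 and 3 stood at 3.43 and 3.44 CPM, within the saline range. Its change of 0.71 on the log2 scale (SE 0.39, edgeR adjusted p = 0.311) became 0.14 (SE 0.30, edgeR adjusted p = 0.855) without ISO replicate 1. The part of atrial RNA in the level of Neb was not tested.

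Nrap (ENSRNOG00000016714), the nebulin-related anchoring gene, varied within both groups. It stood at 574, 406 and 497 CPM in the saline hearts and at 465, 754 and 436 CPM in the ISO hearts. Only ISO replicate 2 lay outside the saline range. The log2 fold change was 0.17 (SE 0.23, edgeR adjusted p = 0.712). Without ISO replicate 1 it was 0.27 and without ISO replicate 2 it was −0.13. Per 10000 counts of the cardiomyocyte reference list Nrap had 78.6 to 86.9 counts in saline and 97.4 to 132 in ISO. On that scaling the log2 fold change was 0.46 (SE 0.16, edgeR adjusted p = 0.14), or 0.11 relative to the median of all genes.

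**Figure D2:**
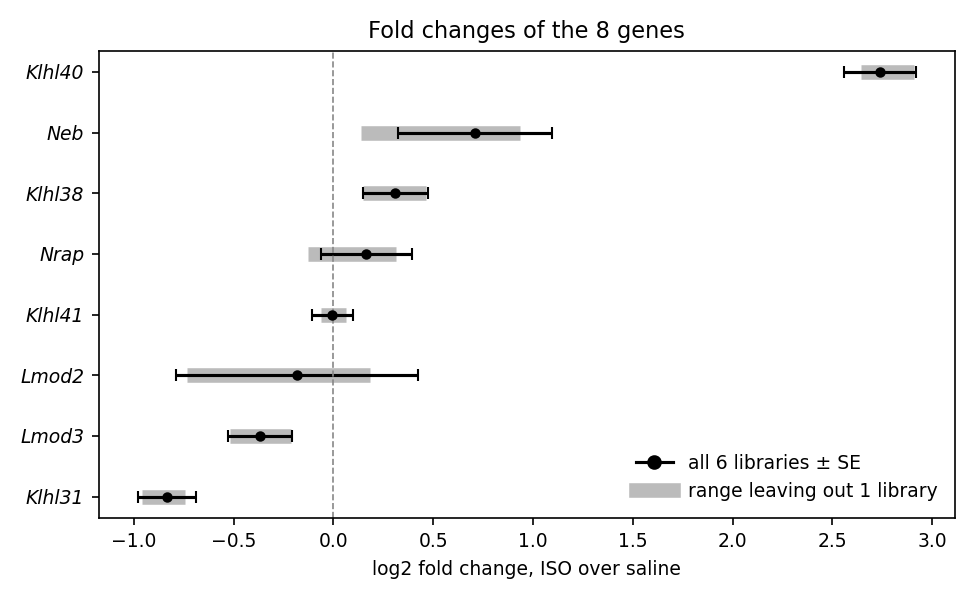
Log2 fold change of ISO over saline (x axis) for the 8 genes, with points and whiskers for the estimate ± SE from 6 libraries and grey bars for the range when 1 library at a time was left out. Klhl40 lay at 2.74 and Klhl31 at −0.83, and the grey bars of Klhl41, Lmod2 and Nrap crossed 0.

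Among the 7 genes other than Klhl40, edgeR called 1 lower (Klhl31), 0 higher and 6 not at all. Before adjustment 2 of the 7, Klhl31 and Lmod3, had an edgeR p under 0.05, and DESeq2 called 1, Klhl31. Over all genes tested, edgeR called 2.97%, with 1.47% higher and 1.5% lower. DESeq2 called 10.2% of all genes, and 22.9% had an unadjusted edgeR p under 0.05. The groups did not overlap in 2 of the 7, Klhl31 and Lmod3, and in 28.8% of all genes. The median log2 fold change of the 7 was −0.01, beside 0.02 for all genes.

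Ratios of counts between 2 genes of the same library do not depend on scaling between libraries. They are not per length, so only their change between libraries is read here. The ratio of Klhl40 to Lmod3 varied less among the ISO hearts than the other 2 ratios of Klhl40 did. It was 0.225, 0.229 and 0.198 in the saline hearts and 2.01, 1.75 and 1.8 in the ISO hearts. Klhl40 against Klhl41 went from 0.082 to 0.0912 in saline to 0.481 to 0.643 in ISO. Klhl40 against Neb went from 1.96 to 2.55 in saline to 5.95 to 14.6 in ISO, lowest in ISO replicate 1. These 3 ratios contain the gene that was picked for its rise and carry no test.

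Among ratios without Klhl40, those of Klhl38 and Klhl41 share Klhl31 as denominator and so are not independent of its lower level. The ratio of Klhl38 to Klhl31 was 0.0635, 0.0617 and 0.0654 in the saline hearts and 0.147, 0.145 and 0.126 in the ISO hearts. The groups did not overlap, with a change of 2.19-fold (exact permutation test, two-sided, p = 0.1; adjusted p = 0.167 over 5 ratios). The ratio of Klhl41 to Klhl31 changed 1.78-fold (exact permutation p = 0.1, adjusted p = 0.167). That of Lmod3 to Neb changed 0.513-fold (exact permutation p = 0.1, adjusted p = 0.167), and on the log2 scale by −0.96, or −0.57 without ISO replicate 1. With 3 hearts against 3 the test cannot go below 0.1, so none could pass. The ratios of Lmod3 to Lmod2 (exact permutation p = 0.8, adjusted p = 0.8) and of Neb to Nrap (exact permutation p = 0.7, adjusted p = 0.8) overlapped between groups.

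**Figure D3:**
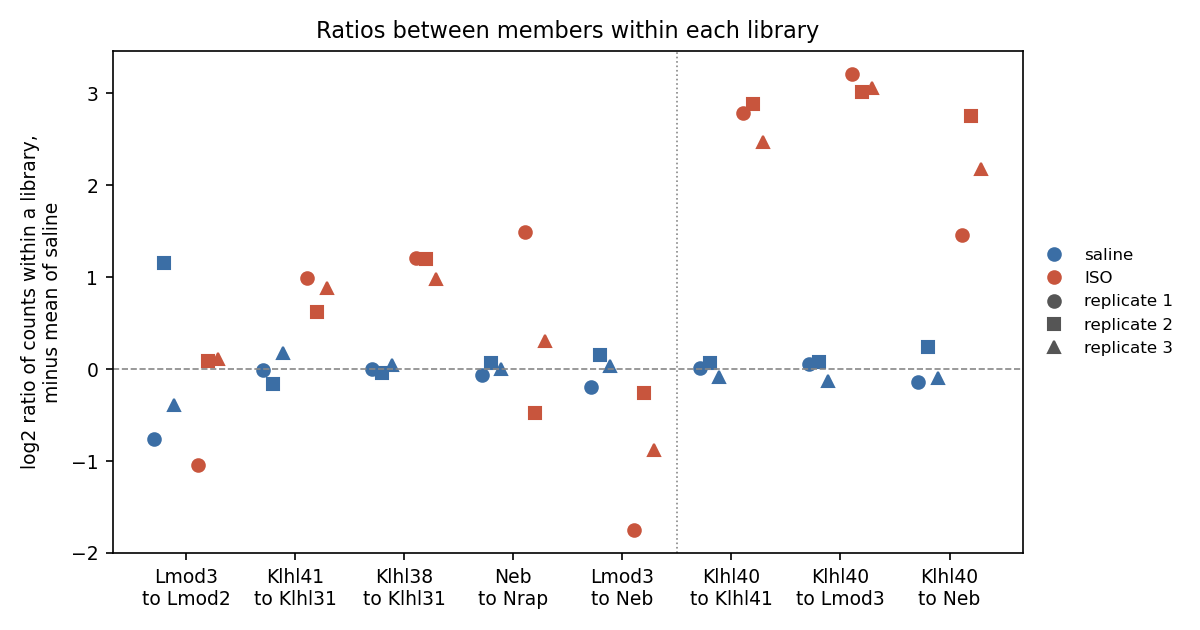
Log2 ratio of counts of 2 genes within a library, minus the mean of the 3 saline libraries (y axis), for 8 gene pairs (x axis), with pairs that contain Klhl40 to the right of the dotted line. Points are libraries, coloured by group and shaped by replicate. All 3 ISO libraries lay above the saline libraries for Klhl38 to Klhl31, at 0.126 to 0.147 against 0.0617 to 0.0654 before logs, whereas Lmod3 to Lmod2 was mixed.

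Of 41 other members of the Kelch family, 37 were tested, with 1 called higher, 1 lower and 35 not called by edgeR. Over all genes edgeR called 1.47% higher and 1.5% lower. An unadjusted edgeR p under 0.05 was seen in 12 of the 37, against 22.9% of all genes. All ISO hearts lay above all saline hearts in 9 and below them in 4, against 14.1% and 14.6% of all genes. The median of the family was −0.03, beside 0.02 for all genes. Ivns1abp, which encodes a Kelch protein that binds actin, stood at 425, 407 and 273 CPM in the saline hearts and at 761, 1073 and 634 CPM in the ISO hearts. Its log2 fold change was 1.16 (SE 0.24, edgeR adjusted p = 0.0435). Klhl23, a little-studied member, stood at 88, 101 and 87.2 CPM in saline and 58.2, 54.6 and 55.7 CPM in ISO, a change of −0.71 (SE 0.10, edgeR adjusted p = 0.0175). In both genes the groups were separate. Klhl33, named after its values were seen, was at 10.9 to 17.4 CPM in saline and 24.0 to 34.4 CPM in ISO but was not called (0.86, SE 0.22, edgeR adjusted p = 0.0708). Both family calls were lost without any 1 saline library or without ISO replicate 1, when edgeR called 0 of the family, and both stood without ISO replicate 2 or 3. DESeq2 called 6 of the 37, against 10.2% of all genes. With libraries scaled to the cardiomyocyte reference list Ivns1abp was called (1.44, edgeR adjusted p = 0.0257) and Klhl23 was not (−0.39, edgeR adjusted p = 0.308).

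**Figure D4:**
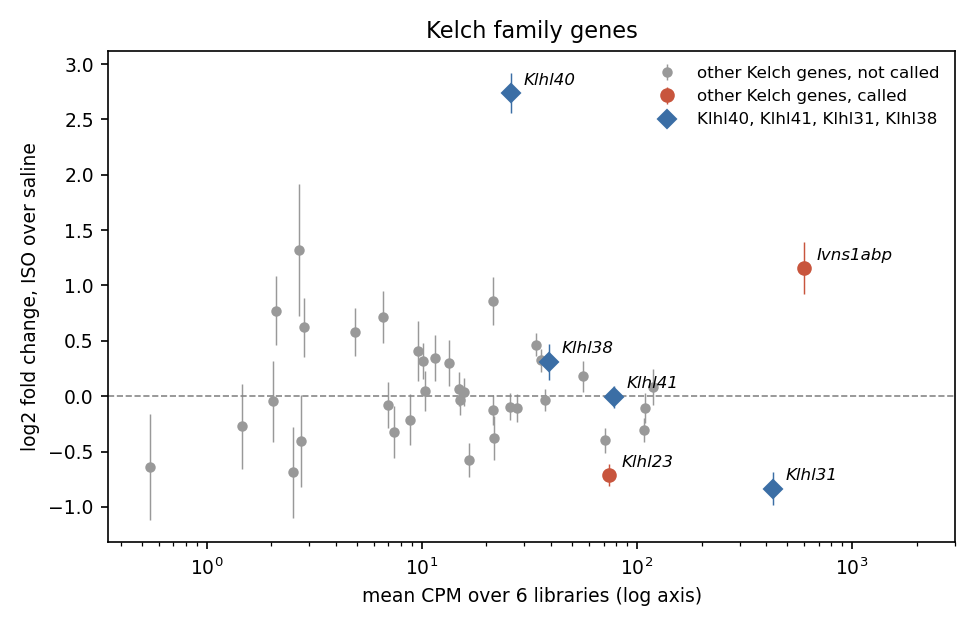
Log2 fold change of ISO over saline ± SE (y axis) against mean CPM over 6 libraries (x axis, log scale) for 37 tested Kelch family genes and the 4 Kelch genes of this report (diamonds). Klhl40 lies at 2.74, above all others plotted, and Klhl31 at −0.83 is below Klhl23, the called lower gene of the rest.

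The machinery of the CUL3 ligase, to which many Kelch proteins dock, had 0 of 17 genes called by edgeR, 7 at an unadjusted p under 0.05 and 4 called by DESeq2. Over all genes these shares were 2.97%, 22.9% and 10.2%. The median of the 17 was −0.13, and the 4 DESeq2 calls were all lower. All ISO hearts lay below all saline hearts in 8 of the 17 and above them in 0, against 14.6% and 14.1% of all genes. The most abundant of them were Ube2m, which conjugates NEDD8 to cullins, at 0.11 (SE 0.15, edgeR adjusted p = 0.709), and Spop, a CUL3 adaptor, at −0.35 (SE 0.10, edgeR adjusted p = 0.0834). Spop stood at 173 to 175 CPM in saline and 131 to 143 CPM in ISO, and its log2 fold change was −0.01 with the reference scaling.

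Genes of the thin filament and its length control had 3 of 24 members called lower, 0 higher and 21 not called, with a median of −0.19. Over all genes 1.5% were called lower. Actc1, the cardiac actin gene whose product leiomodins assemble, stood at 14757 to 16054 CPM in saline and 6427 to 7497 CPM in ISO (−1.18, SE 0.16, edgeR adjusted p = 0.0161). Nebl, which encodes nebulette, the cardiac relative of nebulin, fell from 266, 272 and 245 CPM in the saline hearts to 163, 167 and 148 CPM in the ISO hearts. That is a log2 change of −0.71 (SE 0.11, edgeR adjusted p = 0.019). Cap2, a regulator of actin filament turnover, changed by −0.75 (SE 0.11, edgeR adjusted p = 0.019). Nebl thus fell where Neb and Nrap were not called, and the difference between them was not tested. Among partners in myofibril assembly, the Z-disc and the costamere, 2 of 20 were lower and 18 not called, with a median of −0.28. These were Fhl2, a LIM protein gene, at −1.06 (SE 0.17, edgeR adjusted p = 0.0207) and Nexn, the gene of the actin-binding protein nexilin, at −0.82 (SE 0.12, edgeR adjusted p = 0.0168). Without saline replicate 1, 2 or 3 or ISO replicate 1, edgeR called 0, 0, 0 and 0 of the thin filament list and 0, 1, 0 and 0 of the assembly list, and without ISO replicate 2 it called 4 and 4. With the reference scaling Actc1 was called (−0.86, edgeR adjusted p = 0.0325), while Nebl (−0.39, edgeR adjusted p = 0.228), Cap2 (−0.43, edgeR adjusted p = 0.198), Fhl2 (−0.71, edgeR adjusted p = 0.0729) and Nexn (−0.51, edgeR adjusted p = 0.159) were not.

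Other genes of nemaline myopathy had 0 of 9 tested members called by edgeR, 1 at an unadjusted p under 0.05 and 1 called by DESeq2, with a median of 0.11. Over all genes 2.97%, 22.9% and 10.2% passed these cuts. Acta1, the actin gene of skeletal muscle, was at 0.22 (SE 0.27, edgeR adjusted p = 0.674), and at 0.0238 without ISO replicate 1, 0.0553 without saline replicate 3 and 0.47 without ISO replicate 3. Cfl2, the muscle cofilin gene, was at −0.38 (SE 0.11, edgeR adjusted p = 0.101), and at −0.0645 with the reference scaling.

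Transcription factor genes of muscle had 3 of 14 tested members called lower, 0 higher and 11 not called, with a median of −0.12. Over all genes 1.5% were called lower. Myocd, the gene of the SRF coactivator myocardin, stood at 64.9, 60.3 and 47.9 CPM in the saline hearts and at 17.5, 19.2 and 22.1 CPM in the ISO hearts. Its log2 fold change was −1.56 (SE 0.15, edgeR adjusted p = 0.00748). Srf changed by −0.81 (SE 0.14, edgeR adjusted p = 0.026) and Mef2a, a MEF2 gene, by −0.57 (SE 0.10, edgeR adjusted p = 0.0276). Myod1, Myf5 and Vgll2 had 0 counts in every library. Without saline replicate 1, 2 or 3 or ISO replicate 1, 1 gene of the list was called each time, and Myocd kept its call in every one of these fits. With the reference scaling none of the list was called by edgeR, with Myocd at −1.21 (edgeR adjusted p = 0.0625), Srf at −0.49 (edgeR adjusted p = 0.135) and Mef2a at −0.23 (edgeR adjusted p = 0.517). The MEF2 matches before Klhl40 and Klhl41 and the lower Mef2a level are separate measurements, and no link between them was tested.

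The genes whose pattern lay nearest to that of Klhl40 were found by the root mean square difference in log2 CPM over the 6 libraries, each gene set against its own saline mean. Among 11958 genes compared, the nearest were Pdk4, Akip1, Syt13, Dcx and Dbh, at 0.424, 0.434, 0.471, 0.532 and 0.572. Because Klhl40 had been picked for its rise, its nearest genes are risers by construction and carry no test. Pdk4, the kinase that inhibits pyruvate dehydrogenase, stood at 267, 122 and 245 CPM in the saline hearts and at 1085, 1285 and 961 CPM in the ISO hearts. Akip1, which encodes a protein that binds protein kinase A, stood at 6.33, 6.37 and 5.17 CPM in saline and 24.3, 34.1 and 21.8 CPM in ISO. As in Klhl40, ISO replicate 3 was the lowest ISO library in both genes, a likeness that the choice by nearness favours. In Dcx the lowest was ISO replicate 2, at 3.49 CPM. Syt13, a synaptotagmin, Dcx, the microtubule protein doublecortin, and Dbh, the enzyme that makes noradrenaline, were low. All stood under 1.5 CPM in saline and between 1.87 and 7.2 CPM in ISO. They reached the mean of 1 CPM over all libraries, required for this comparison, only through the ISO hearts. Syt13 was at 0.126 CPM in saline replicate 3, where 3 counts are 0.189 CPM. Of the 7 other genes of the set, Neb was nearest to Klhl40 at 1.55 and Klhl31 farthest at 2.5. Neb was raised in ISO replicate 1 only, at 1.41 over its saline mean, against 0.145 and 0.15 in ISO replicates 2 and 3.

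**Figure D5:**
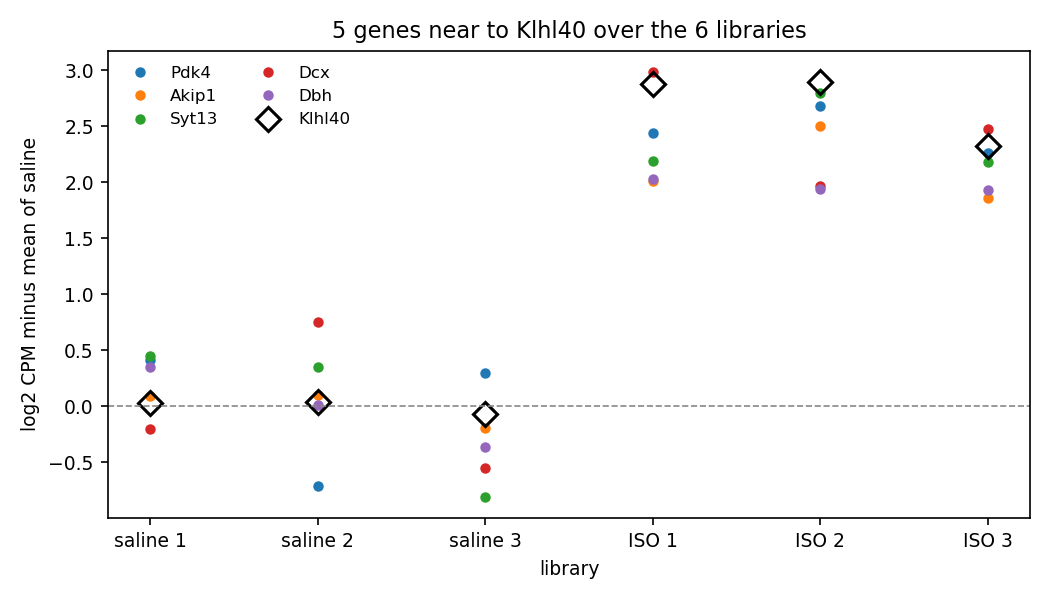
Log2 CPM minus the gene's mean over the saline libraries (y axis) in each of the 6 libraries (x axis), for Klhl40 (open diamonds) and the 5 genes with the smallest root mean square difference from it. Klhl40 lay within 0.1 of 0 in saline and at 2.87, 2.89 and 2.32 in the ISO hearts, and the 5 genes differed from it by 0.424 to 0.572 over the libraries.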

How the data were processed

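RNA was measured in 6 rat hearts, 3 per group. The authors deposited raw whole-number counts per gene, made with featureCounts from 150 bp paired reads that HISAT2 aligned to rat, per the series description. No source used here states the versions or the strand setting. In the submitters' processing notes the build is mm10, whereas 32883 of 33889 rows carry rat Ensembl identifiers. For this reason no coordinates of the counted models were used.

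Rows without a rat Ensembl identifier, 1006 of 33889, took 0.981% to 1.32% of a library's counts and were left out. The main test was edgeR 4.0.16 under R 4.3.3 (quasi-likelihood F test, TMM, default filter, Benjamini-Hochberg). The standard error of a fold change is its absolute value over the square root of F. Log2 CPM used a prior count of 2, and ratios added 1 count to each gene. DESeq2 1.42.0 and voom of limma 3.58.1 were alternatives. The scripts were tested on simulated data. Lists left out the 8 genes. The named genes are the 8, the 6 nearest patterns among genes averaging 1 CPM or more (1 is not reported here), and from each pathway list up to 3 called genes by p or otherwise the 2 most abundant. Marker lists gave their 2 most abundant and up to 2 called genes, not all of which are printed. Myl7, skeletal muscle markers outside that rule and genes at or near 0 counts were named after their values were seen. Genes and lists were chosen with earlier results of these data known. The p-values of edgeR set a difference between groups against the spread between these rats, with that spread moderated across genes. Those of the ratios come from relabelling the libraries. All pairs of libraries of a group differed by more than sampling noise.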

Additional observations from a re-analysis of the deposited data

How the results depend on the processing

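The fold changes of Klhl40, Klhl31, Klhl38, Lmod3 and Neb kept their direction in every alternative run. Klhl41 gave 0.10 without scaling and 0.32 with the cardiomyocyte reference list, and −0.064 to 0.0616 leaving out 1 library. Lmod2 gave 0.16 with the reference list and −0.73 to 0.18 leaving out 1 library, and Nrap −0.13 to 0.31. Klhl31 lost its call with the reference list (−0.54, edgeR adjusted p = 0.129) and with the replicate number as a block (−0.84, edgeR adjusted p = 0.0622), so that 0 of the 7 genes were called in either fit. Leaving out 1 library gave 0 to 1 of the 7 and −0.96 to −0.74 for Klhl31. Leaving out 1 library, the log2 change of the ratio of Lmod3 to Lmod2 ran from −0.66 to 0.30, that of Neb to Nrap from −0.087 to 0.90, and the fold change of Ube2m from −0.0272 to 0.22. The cause was not tested.

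Genes called numbered 409 (203 higher, 206 lower) in all, 280 higher and 123 lower without scaling, 126 with the reference list (116 higher, 10 lower), 594 without a filter, 1405 by DESeq2, 1837 by the series' own rule (DESeq2 unadjusted p under 0.05, absolute log2 fold change over 0.5), 28 with the block, and 12 to 891 leaving out 1 library. The 2 Kelch family, 0 CUL3, 3 thin filament, 2 assembly, 0 nemaline myopathy and 3 transcription factor calls became 6, 4, 6, 7, 1 and 4 by DESeq2, 7, 1, 6, 6, 1 and 4 by the series' rule, 1, 0, 1, 0, 0 and 0 with the reference list, and 0, 0, 0, 0, 0 and 1 with the block. The replicate numbers name separate rats, and deviations of same-numbered libraries correlated at 0.087, −0.099 and 0.018, so the block pairs no animals. Outside the 8, the naming rules picked 23 called genes, among them marker genes not printed here. Of the 23, 0 reversed in any alternative, and 4, 6, 1, 3, 23 and 22 stayed called without saline replicate 1, 2 or 3 and ISO replicate 1, 2 or 3. Counts of 7 to 29 limit the precision of Lmod2.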
